A study of Mus musculus with 8 samples.

Results

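MAP kinase feedback inhibitors were measured in bulk RNA-Seq libraries of tumor-infiltrating CD4+ Tconv cells. The set was chosen by name and comprised the dual-specificity phosphatase genes Dusp1, Dusp2, Dusp4, Dusp5, Dusp6 and Dusp10, the Sprouty genes Spry1 and Spry2, and Spred1. Of these 9 names, 8 matched a row among the 11233 genes of the deposited table. Spry2 was not analysed here. The tumors were melanomas formed by the mouse cell line B16-F10 after subcutaneous implantation into Foxp3-EGFP_DTR mice. In this genotype Treg cells, which use the Foxp3 locus, are labelled with EGFP and die when diphtheria toxin (DTx) is given, because the same locus directs synthesis of its receptor. All animals received DTx, and the EGFP-negative Tconv cells were separated by FACS into 4 CCR8+ and 4 CCR8- libraries, CCR8 being a chemokine receptor. Both groups therefore shared the Foxp3 allele, the tumor line and the loss of Treg cells, and no group with intact Treg cells was analysed here. Ages are not given in the labels, and the study's methods speak of mice of both sexes. The libraries of a group are biological replicates isolated on the same day, per the study, and the labels do not say whether equal replicate numbers in the CCR8+ and CCR8- groups stand for the same mouse.

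MAP kinase pathways carry signals from the T cell receptor, costimulatory receptors and cytokines through ERK, JNK and p38. Dual-specificity phosphatases end these signals by removing phosphate from both the threonine and the tyrosine of the activation loop of a MAP kinase, and many of their genes are themselves induced by MAP kinase activity, which closes a negative feedback loop. Sprouty and SPRED proteins act further upstream and restrain the activation of Ras and Raf. In T cells several of these genes respond to antigen receptor signals within minutes to hours, and mRNA levels of this kind can also change during enzymatic digestion of tissue.

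Promoter bases are shown for Dusp1 and Dusp10, the 2 members that were lower in CCR8+ than in CCR8- cells in all 4 same-numbered comparisons, and for Dusp5, whose promoter held the most CArG boxes. The sequences are RefSeq's for GRCm38.p6, read 5′ to 3′ on the strand of the gene, whereas the authors' reads were aligned to NCBIM37, so the coordinates apply only to the reference sequence. Capitals mark cAMP response elements (TGACGTCA), their half-sites (TGACG), AP-1 sites (TGANTCA) and CArG boxes, the binding motif of serum response factor, searched on both strands and with half-sites counted inside full elements.
Dusp1, chr17:26508520-26508722, minus strand: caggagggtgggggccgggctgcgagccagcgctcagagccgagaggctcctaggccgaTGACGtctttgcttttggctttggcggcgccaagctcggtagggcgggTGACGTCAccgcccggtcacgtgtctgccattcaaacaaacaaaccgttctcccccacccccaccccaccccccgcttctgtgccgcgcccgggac
Dusp5, chr19:53528895-53529108, plus strand: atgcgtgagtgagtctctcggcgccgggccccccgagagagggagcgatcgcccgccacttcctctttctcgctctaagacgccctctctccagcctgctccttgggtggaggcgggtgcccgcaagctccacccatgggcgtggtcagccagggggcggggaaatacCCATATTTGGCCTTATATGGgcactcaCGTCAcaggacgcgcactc
Dusp10, chr1:184034131-184034380, plus strand: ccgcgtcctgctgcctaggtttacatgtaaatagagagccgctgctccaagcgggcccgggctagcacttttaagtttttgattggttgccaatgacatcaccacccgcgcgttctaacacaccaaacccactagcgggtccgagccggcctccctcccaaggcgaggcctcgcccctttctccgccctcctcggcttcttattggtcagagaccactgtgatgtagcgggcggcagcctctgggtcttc
The search covered the 250 bases before each RefSeq start, and the 47 bases of Dusp1 and 36 bases of Dusp5 next to that start, which GENCODE lists as exon, are not shown. The Dusp1 and Dusp10 bases lie inside introns of GENCODE transcripts of the same genes that start further upstream. The Dusp1 window held 1 full cAMP response element, which starts 143 bases before the RefSeq start and was present in 1.62% of the 27025 promoters of the reference table. It held 3 half-sites, 2 of them inside the full element, and a half-site was present in 17.9% of all promoters. The Dusp5 window held 2 CArG boxes side by side, 82 and 72 bases before the start, against a share of 1.40% of all promoters with at least 1. It also held 1 half-site. AP-1 sites were present in 6.87% of all promoters and in none of the member windows. The Dusp10 window held none of the marked motifs and 3 CCAAT boxes (CCAAT), which 34.5% of all promoters have. Promoters of 8 of the 9 named genes were in the table. These matches describe letters only.

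The values are normalized counts, that is, read counts that the authors divided by 1 size factor per library, and a single read was worth between 0.735 and 1.14. Recovered totals were between 12067780 and 17802628 reads per library. The sort was examined first: Ccr8 was at 2039, 1293, 6214 and 4637 in CCR8- replicates 1 to 4 and at 7975, 6970, 42508 and 22965 in CCR8+ replicates 1 to 4, with every CCR8+ library above every CCR8- library. All 8 CD4 T cell markers were above 3 reads in every library. CCR8- replicate 1 stood apart, with 8569 genes detected against 9544 to 10882 in the other libraries, and 364 genes at 3 reads or fewer that had at least 100 normalized counts in the other 7. By the same count CCR8+ replicate 1 had 50 such genes, CCR8+ replicate 3 had 45, and the remaining 5 libraries had 0. Each member's difference is therefore also given without CCR8- replicate 1.

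Per kilobase of annotated exon, Dusp1 was the most abundant member and Spred1 the least. The mean level over the 8 libraries was 10898 normalized counts per kb for Dusp1, which ranked 93rd of the 10814 genes with an exon length. It was 4394 for Dusp2, 1646 for Dusp10, 1374 for Dusp5, 701 for Dusp4 and 429 for Dusp6 on the same per-kb scale. Spry1 stood at 168 and Spred1 at 21.7 normalized counts per kb. Dusp1 exceeded Dusp2, Dusp6 exceeded Spry1 and Spry1 exceeded Spred1 in 8 of 8 libraries. The neighbours in between were less separated: Dusp2 lay above Dusp10 in 7 libraries, Dusp10 above Dusp5 in 6, Dusp5 above Dusp4 in 7 and Dusp4 above Dusp6 in 6. Exons of antisense genes covered 547 of the 2473 exonic bases of Dusp5 and 710 of the 2906 of Spry1, and because the use of strand is not given in the sources used here, reads from those stretches cannot be assigned to 1 strand.

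**Figure D1:**
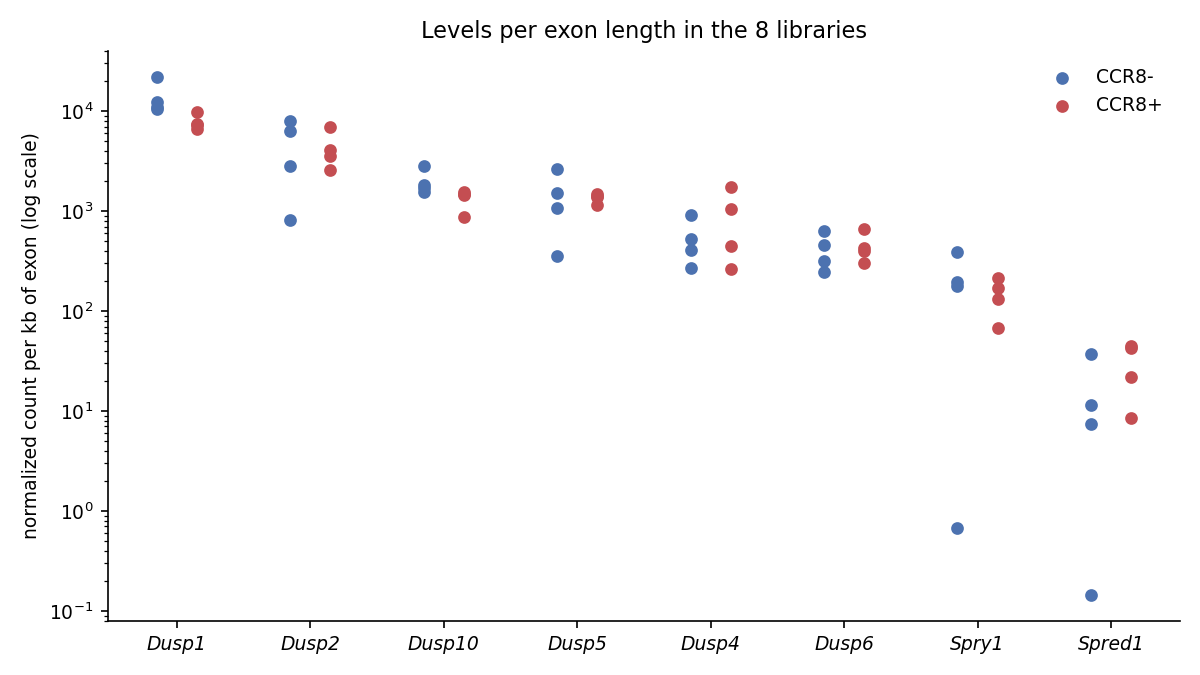
Normalized count per kb of exon (log scale) of each member in the 4 CCR8- (blue) and 4 CCR8+ (red) libraries, 1 point per library, ordered by the mean over all 8. The order runs from Dusp1 (mean 10898) to Spred1 (mean 21.7), and the isolated low points of Spry1 and Spred1 are CCR8- replicate 1.

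The central comparison asked whether feedback inhibitor mRNA differed between CCR8+ and CCR8- Tconv cells after Treg cell depletion. Dusp1 was lower in CCR8+ cells with no overlap between the groups, Dusp10 was nearly separated in the same direction, and the other 6 members overlapped. No member was called by limma at an adjusted p under 0.05 over the 11032 genes tested. This was so for every gene, the share called being 0%. Of the 8 members 1 did not overlap in the lower direction and 0 in the higher direction, against 2.03% and 2.37% of all genes tested. At an unadjusted p under 0.05, 1 member was lower and 0 were higher, against 2.29% and 2.8% of all genes. With edgeR on the recovered reads 0 members were called, as was 0% of genes, and at an unadjusted p under 0.05 it gave 1 member, Dusp1, against 1.98% of all genes in the lower direction. DESeq2 called 0 members, against 0.177% of genes called higher and 0.0745% called lower. At an unadjusted p under 0.05 it gave 2 members, Dusp1 and Dusp10, against 2.59% of genes in the lower direction. The median log2 difference of the members was 0.28, beside 0.04 over all genes, and it turned to -0.32, beside -0.08, without CCR8- replicate 1. It was -0.06 with edgeR and -0.05 with DESeq2. All log2 differences are CCR8+ minus CCR8-. Those of limma and of same-numbered comparisons are on the log2(normalized count + 1) scale. The log2 differences of edgeR and DESeq2 were fitted to recovered reads and are not on that scale. Since these are bulk libraries, fewer cells expressing a gene and less RNA per cell cannot be told apart.

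Dusp1 encodes MKP-1, a nuclear phosphatase that acts on p38, JNK and ERK and is induced within minutes of stimulation. It was at 52454, 24654, 29456.5 and 26369 normalized counts in CCR8- replicates 1 to 4 and at 15712.5, 17789, 23307 and 17148.5 in CCR8+ replicates 1 to 4. Every CCR8+ library was below every CCR8- library, but the closest pair, CCR8- replicate 2 and CCR8+ replicate 3, differed by only 1.06-fold. The group means were 33233 ± 12967 in CCR8- and 18489 ± 3327 in CCR8+ cells (SD, n = 4 each). The log2 difference was -0.79 (SE 0.29, 95% interval -1.44 to -0.15), with an unadjusted p of 0.0206 and an adjusted p of 0.838 by limma. The two-sided exact permutation test over the 70 assignments of the labels gave p = 0.0286, the smallest p this design allows. Groups without overlap always give this p and the same sign in every same-numbered comparison, so neither adds to the lack of overlap. The 4 same-numbered differences lay between -1.74 for number 1 and -0.34 for number 3. Without CCR8- replicate 1, which had the highest value, the log2 difference was -0.55. Leaving out a library cannot make separated groups overlap, so the lack of overlap was not checked by this. In that setting 4.24% of all genes were lower without overlap.

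Summed macrophage and monocyte markers, 9 of the 10 listed genes being in the table, ranged from 27.6 to 58733 normalized counts in CCR8- and from 2516 to 26287 in CCR8+ libraries. In CCR8- replicate 1, where Dusp1 was highest, only 3 of these 9 markers were above 3 reads. That library also had the fewest genes detected (8569), and 364 genes high in the other 7 libraries were at 3 reads or fewer in it. Summed melanoma markers ranged from 105 to 17214 in CCR8- and from 232 to 21698 in CCR8+ libraries, highest in replicate 4 of both groups. CD8 T cell markers and natural killer cell markers summed to at most 3805 and 256 normalized counts in any library. The part of these other cells in the member values was not tested.

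**Figure D2:**
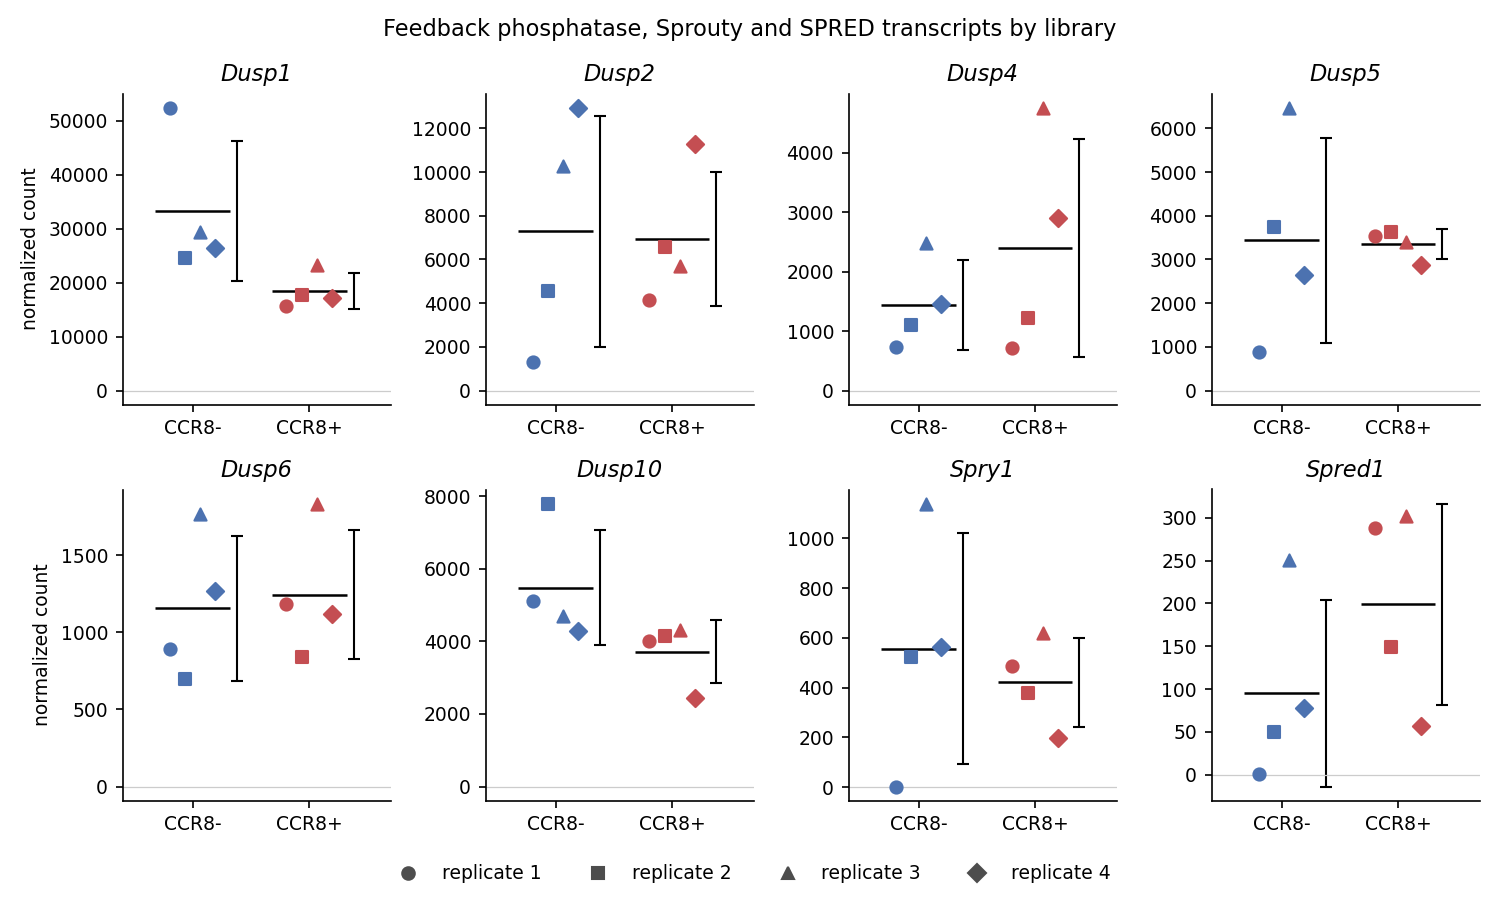
Normalized counts (y axes, each from below 0 to the highest library of that gene) of the 8 members in CCR8- (blue) and CCR8+ (red) libraries, with marker shape giving the replicate number, a horizontal line at the mean and a bar of ± 1 SD (n = 4). Only the Dusp1 groups do not overlap. CCR8- replicate 1 (circle) is the highest library for Dusp1 and the lowest CCR8- library for Dusp2, Dusp4, Dusp5, Spry1 and Spred1.

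Dusp10, which encodes MKP-5, a phosphatase selective for JNK and p38, was the other member with a lower mean in CCR8+ cells. It was at 5100, 7795.5, 4696 and 4295 normalized counts in CCR8- and at 3997, 4139, 4313 and 2431 in CCR8+ replicates 1 to 4. The groups overlapped only through CCR8- replicate 4 and CCR8+ replicate 3, whose ratio was 0.996. The means were 5472 ± 1584 in CCR8- and 3720.0 ± 869 in CCR8+ cells (SD, n = 4 each). The log2 difference was -0.55 (SE 0.26, 95% interval -1.12 to 0.02) with an adjusted p of 0.838 by limma, and the exact permutation p was 0.0571. All 4 same-numbered comparisons were negative, between -0.91 and -0.12. The difference was -0.36 without CCR8+ replicate 4, the lowest library, and -0.37 without CCR8- replicate 2, the highest. It was -0.57 without CCR8- replicate 1. Leaving out either CCR8+ replicate 3 or CCR8- replicate 4 removes this only overlap by construction, so it is not a separate check. In these settings 3.17% and 4.09% of all genes, respectively, were lower without overlap.

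Dusp2, Dusp4 and Dusp5 encode nuclear phosphatases, and Dusp5 acts on ERK. Dusp2, first known as PAC-1 from activated lymphocytes, was at 1319, 4566, 10289 and 12946 normalized counts in CCR8- and at 4163, 6580, 5704.5 and 11274 in CCR8+ replicates 1 to 4. The CCR8- libraries spanned a wider range than the CCR8+ libraries and enclosed all of them. The log2 difference was 0.28 (SE 0.61, 95% interval -1.06 to 1.63, adjusted p = 0.937 by limma) and became -0.39 without CCR8- replicate 1. Dusp4 was at 729.9, 1109, 2483 and 1449 in CCR8- and at 714, 1227, 4760 and 2902 in CCR8+ replicates 1 to 4. Its highest values were in replicates 3 and 4 of the CCR8+ cells, the same 2 libraries that had the highest Ccr8. The log2 difference was 0.51 (SE 0.56, 95% interval -0.71 to 1.74, adjusted p = 0.853 by limma), and it was 0.23 without CCR8- replicate 1 and 0.06 without CCR8+ replicate 3. Dusp5 was at 883, 3746, 6474.5 and 2653 in CCR8- and at 3531, 3627, 3396 and 2863 in CCR8+ replicates 1 to 4. Its CCR8+ libraries lay within a narrow band inside the CCR8- range, with an SD on the log2 scale of 0.15 against 1.21. Its log2 difference of 0.28 (SE 0.48, 95% interval -0.77 to 1.34, adjusted p = 0.910 by limma) became -0.26 without CCR8- replicate 1.

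Dusp6, which encodes MKP-3, a cytoplasmic phosphatase for ERK, had the narrowest range from lowest to highest library among the members. It was at 890.5, 695, 1768 and 1266 normalized counts in CCR8- and at 1187, 842, 1835 and 1117 in CCR8+ replicates 1 to 4, a 2.64-fold range. Replicate 3 was the highest library of both groups and replicate 2 the lowest of both. The means of 1155 ± 473 and 1245 ± 420 (SD, n = 4 each) differed by 0.14 on the log2 scale (SE 0.34, 95% interval -0.61 to 0.89, adjusted p = 0.949 by limma). It was 0.05 without CCR8- replicate 1, and the interval leaves room for a difference in either direction.

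Spry1 and Spred1, the regulators upstream of the MAP kinases, had the widest spread, and both were near absent in CCR8- replicate 1. Spry1 was at 1.97, 521, 1139.5 and 562 normalized counts in CCR8- and at 488.5, 379.5, 620 and 198.5 in CCR8+ replicates 1 to 4, the first value standing for 2 reads. Apart from that library, every same-numbered comparison was negative, between -1.50 and -0.46. The log2 difference of 1.13 (SE 1.54, 95% interval -2.25 to 4.52, adjusted p = 0.887 by limma) turned to -0.83 without CCR8- replicate 1, whereas the group means were 556 ± 465 in CCR8- and 422 ± 178.5 in CCR8+ cells (SD, n = 4 each). Spred1, whose protein recruits neurofibromin to Ras, was at 0.985, 49.98, 251 and 78.4 in CCR8- and at 289, 149, 302 and 57.4 in CCR8+ replicates 1 to 4, the first value standing for 1 read. The CCR8+ values spanned most of the CCR8- range and the groups overlapped. Its log2 difference was 2.14 (SE 1.46, 95% interval -1.06 to 5.34, adjusted p = 0.838 by limma) with CCR8- replicate 1 and 0.73 without it.

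**Figure D3:**
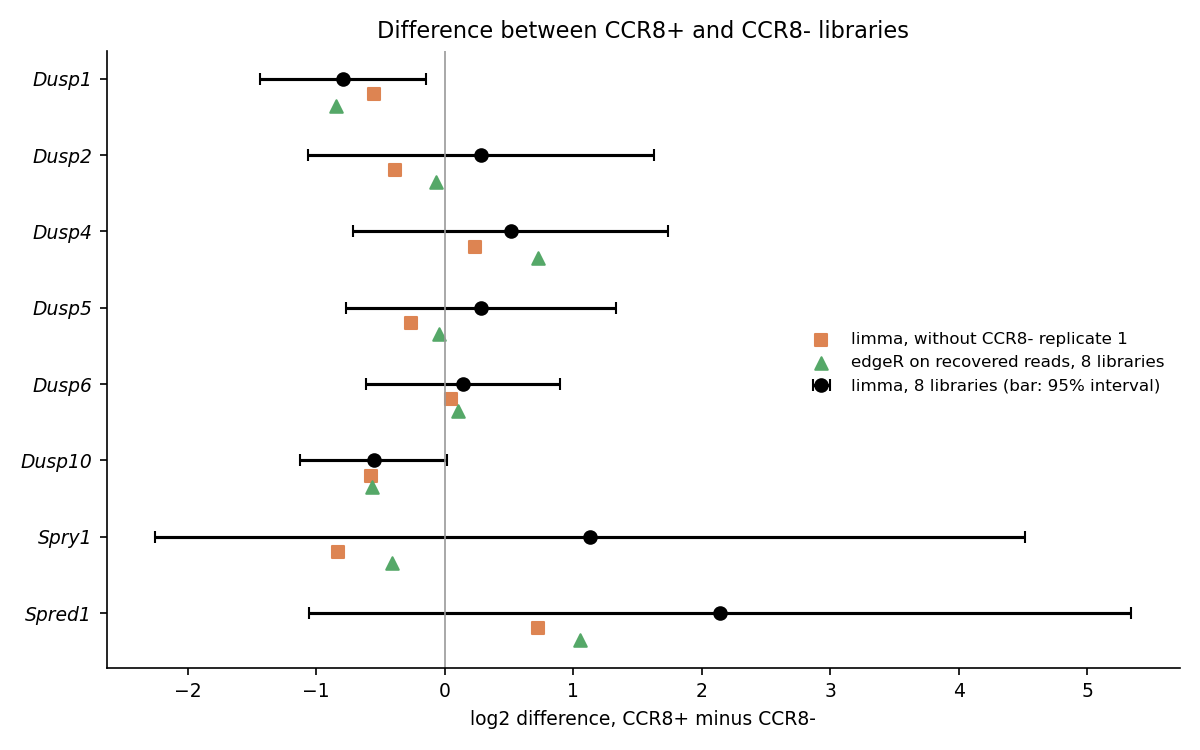
Log2 difference of each member (x axis, CCR8+ minus CCR8-) by limma over 8 libraries (black points, bars the 95% interval), by limma without CCR8- replicate 1 (orange squares) and by edgeR on recovered reads (green triangles). Dusp1 alone has an interval that leaves out 0, and Dusp2, Dusp5 and Spry1 change sign when CCR8- replicate 1 is left out or edgeR is used.

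The comparisons within replicate numbers showed which members rested on 1 library. Dusp1 and Dusp10 were lower in the CCR8+ library for 4 of 4 numbers, which for Dusp1 follows from the lack of overlap. The share of all genes with 4 of 4 in the same direction was not counted. Dusp4, Dusp6 and Spred1 were higher in 3 of 4, Spry1 was higher in 1 of 4, and Dusp2 and Dusp5 were split 2 to 2. For number 1, the log2 differences of Spry1 and Spred1 were 7.37 and 7.19, set by the 2 and 1 reads of CCR8- replicate 1. For number 1 those of Dusp2 and Dusp5 were 1.66 and 1.999. Among numbers 2 to 4 the widest difference was 1.55, for Spred1 in number 2.

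**Figure D4:**
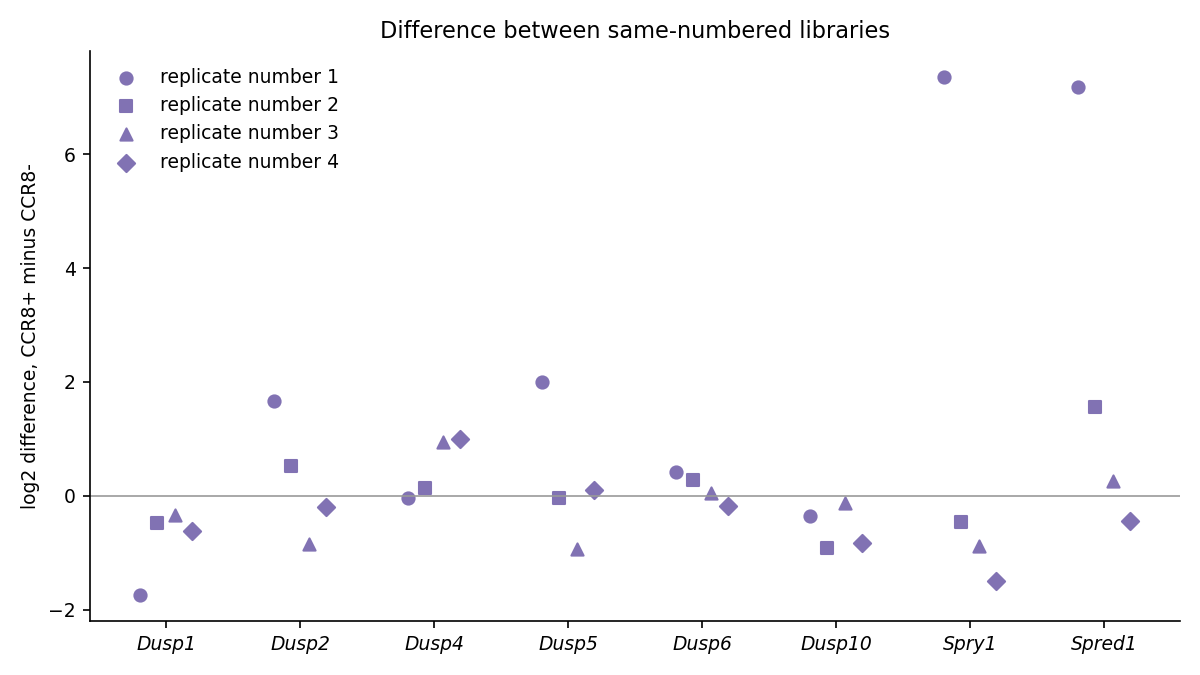
Log2 difference (y axis) between the CCR8+ and the CCR8- library of the same replicate number for each member, with marker shape giving the number. All 4 points of Dusp1 and Dusp10 lie below 0, and the points at 7.37 (Spry1) and 7.19 (Spred1) are replicate number 1.

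The members did not vary as 1 unit across the libraries. Pearson correlations of log2 values over the 8 libraries, given as a description because the libraries share 2 groups and differ in complexity, ran from 0.94 for Dusp5 with Spry1 to -0.75 for Dusp1 with Spred1. Over the 7 libraries without CCR8- replicate 1 the same 2 values were 0.71 and -0.04, and Dusp1 with Spry1 went from -0.67 to 0.75. Among 8405 other genes with a mean of at least 100 normalized counts, the pattern of Dusp1 was most like that of Etaa1 (r = 0.99 over 8 libraries and 0.98 without CCR8- replicate 1). The closest gene was Padi2 for Dusp4 (0.97), Trib1 for Dusp6 (0.94) and 1500009L16Rik for Dusp10 (0.91). It was Siah1b for Dusp2 (0.96), Trpc4ap for Dusp5 (0.99), Strn4 for Spry1 (0.996) and Krr1 for Spred1 (0.99). Without CCR8- replicate 1 these r values were 0.92 for Dusp2, 0.94 for Dusp5, 0.95 for Spry1 and 0.93 for Spred1. With all 8 libraries 947 genes reached an r of 0.9 with Spry1, 541 with Spred1 and 348 with Dusp5, and without CCR8- replicate 1 these counts were 38, 33 and 64.

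The list of other dual-specificity phosphatases, which also held the tyrosine phosphatase genes Ptpn7 and Ptprr, had 12 of its 15 genes tested. In 3 of these the groups did not overlap, all higher in CCR8+ cells. Over all genes tested, 2.37% were higher and 2.03% were lower without overlap. None of the 12 was lower without overlap. None was called by limma in the main fit, or by edgeR or DESeq2 without a block for the replicate number. By DESeq2 the adjusted p of Dusp14 was 0.058 without that block and 1.88e-10 with it. The labels do not say that equal replicate numbers share a mouse. With library quality weights, limma called 1 gene of this list and 112 over all genes. Dusp14 (MKP-6) was at 669.8, 327, 914 and 2341 normalized counts in CCR8- and at 3184, 2534, 4238 and 6935 in CCR8+ replicates 1 to 4, a log2 difference of 2.24 (SE 0.52, adjusted p = 0.829 by limma). Dusp16 (MKP-7), a phosphatase for JNK and p38, was between 19.7 and 125 in CCR8- and between 177 and 903 in CCR8+ libraries, a log2 difference of 2.24 (SE 0.85, adjusted p = 0.838 by limma) that was 1.69 without CCR8- replicate 1. Dusp19 was between 11.8 and 296 in CCR8- and between 305 and 344 in CCR8+ libraries, and its log2 difference was 1.62 (SE 0.93, adjusted p = 0.838 by limma). This value rested on the 11.8 of CCR8- replicate 1, without which it was 0.60, and edgeR gave 0.95 with all 8 libraries. In the same libraries Dusp1 had the opposite direction. Dusp14 and Dusp16 are in a gene table that the study selected on these same libraries, so their direction is not independent evidence. The median log2 difference of the 12 genes was 0.36, beside 0.04 over all genes. Of the other Sprouty and SPRED genes only Spred2 was tested, with means of 27.6 ± 15.7 in CCR8- and 45.7 ± 21.1 in CCR8+ cells (SD, n = 4 each) and overlapping groups.

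Upstream of the phosphatases, the Ras to ERK cascade had 25 genes tested, of which 1 was lower and 1 higher without overlap and 0 were called by limma. The shares over all genes were 2.03% lower and 2.37% higher without overlap. Rasgrp2, a nucleotide exchange factor for Rap1, was between 1015 and 2048 normalized counts in CCR8- and between 127 and 757 in CCR8+ libraries (log2 difference -1.97, adjusted p = 0.829 by limma). Hras was between 660.0 and 869.5 in CCR8- and between 924.5 and 1093 in CCR8+ libraries. Rasa3, a GTPase-activating protein, had overlapping groups with means of 2184.5 ± 840 in CCR8- and 729 ± 447 in CCR8+ cells (SD, n = 4 each). Rasgrp2 and Rasa3 are in the same study-selected table. The list's median was 0.004. In the JNK and p38 cascade 0 of 21 tested genes were without overlap and 0 were called by limma. At an unadjusted p under 0.05 by limma, 3 were higher and 0 lower, against 2.8% and 2.29% of all genes. The largest test statistics belonged to Mapkapk2 and Mapkapk3, kinases activated by p38, whose means were 3371 ± 928 and 3154 ± 937 in CCR8+ against 1989 ± 740.5 and 1753 ± 843 in CCR8- cells (SD, n = 4 each). The list's median was 0.07.

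Of 18 tested MAP kinase-induced transcripts 2 were lower and 1 was higher without overlap, against 2.03% and 2.37% of all genes. Among the 18, 0 were called by limma, and the median was -0.04. At an unadjusted p under 0.05 by limma, 5 were higher and 2 lower, against 2.8% and 2.29% of all genes. The immediate early gene Ier2 was between 10007 and 11392 normalized counts in CCR8- and between 5552 and 7820 in CCR8+ libraries (log2 difference -0.70, SE 0.20, adjusted p = 0.829 by limma). Cd69, an early activation marker, was between 10523.5 and 11418 in CCR8- and between 5256 and 9126 in CCR8+ libraries (log2 difference -0.68). Dusp1 shared its direction and its lack of overlap with these 2 genes. The 5 genes of the list that were higher at an unadjusted p under 0.05 by limma, Etv5 among them, went the other way. Etv5, an ETS family transcription factor, was at 0 to 36.3 in CCR8- and 38.9 to 448 in CCR8+ libraries.

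Among 16 MAP kinase-responsive transcription factors and kinases, 0 were without overlap, against 2.03% of all genes lower and 2.37% higher, and 0 were called by limma. At an unadjusted p under 0.05 by limma, 1, Ets1, was lower, against 2.29% of all genes. Ets1, which encodes a lymphocyte transcription factor, had means of 6948 ± 632 in CCR8+ and 10315 ± 2468.5 in CCR8- cells (SD, n = 4 each). Elk4, with the next largest statistic, was at 0, 197, 198 and 23.5 in CCR8+ replicates 1 to 4 and between 184.5 and 266 in CCR8- libraries. The list's median was -0.08. Transcripts known to respond to tissue digestion and heat shock gave 0 genes without overlap and 0 called by limma among 14 tested, and a median of -0.01. At an unadjusted p under 0.05 by limma there were also 0, against 2.8% of all genes higher and 2.29% lower. With 14 genes, counts of 0 lie near the shares over all genes. Atf3 and Klf6 had the largest statistics in this list, with means of 2707 ± 1247 and 8508 ± 3019 in CCR8+ and 1606 ± 886 and 11953 ± 2047 in CCR8- cells (SD, n = 4 each). The heat-shock genes Hspa1a, Hspa8 and Dnajb1 had negative log2 differences, -0.64, -0.40 and -0.61, with overlapping groups. They were lower in the CCR8+ library for 4 of 4 replicate numbers, as Dusp1 was. Hspa1b was at -0.60 and was lower in 3 of 4. The other heat-shock genes of the list did not share this: Hsp90aa1, Hsph1 and Dnaja1 were at 0.02, 0.13 and 0.03. Hsp90aa1 was higher in 3 of 4 numbers, and Hsph1 and Dnaja1 were split 2 to 2. Outside the heat-shock genes, Nfkbia was higher in 4 of 4 numbers (log2 difference 0.67) and Atf3 in 3 of 4 (0.82). Of the 14 genes of this list, 6 had a positive and 8 a negative log2 difference. Hspa1a was highest in CCR8- replicate 3, at 18864, against 3582 to 7290 in the other 7 libraries. The part of digestion in the member values was not tested.

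**Figure D5:**
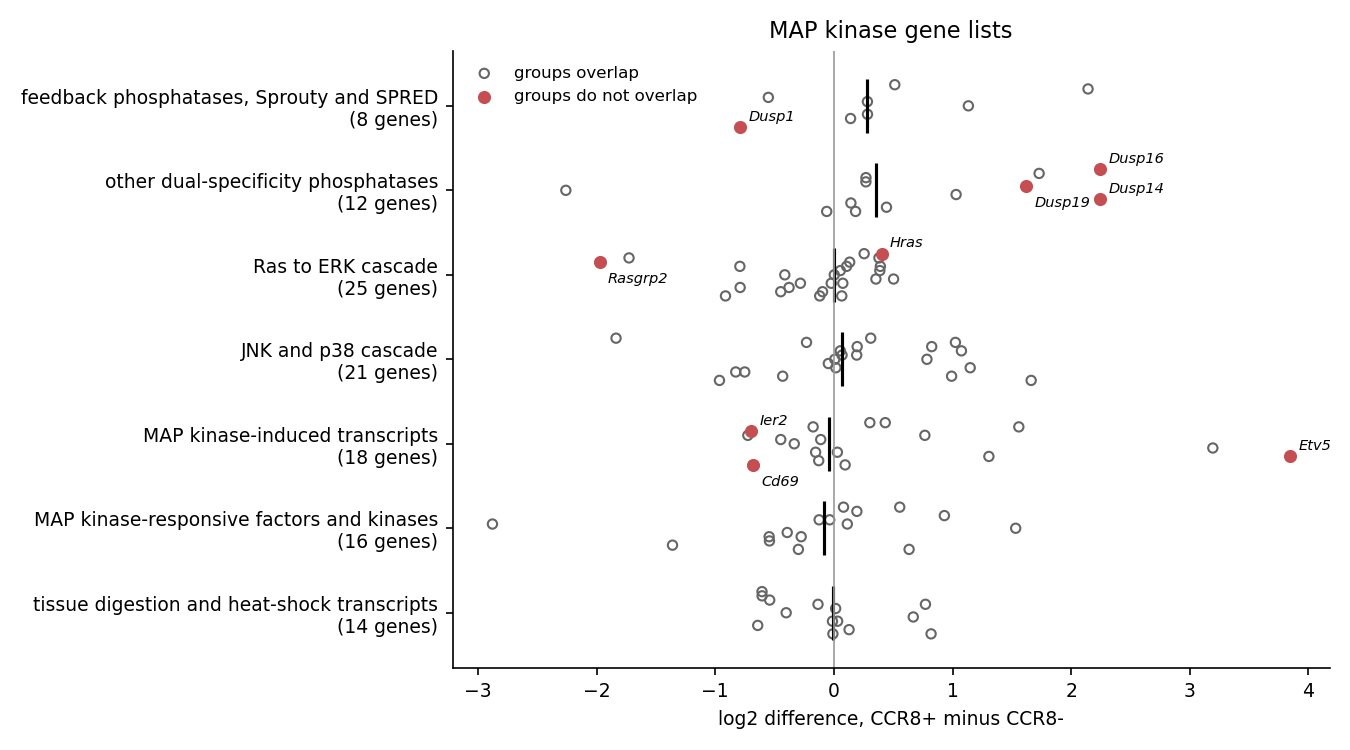
Log2 difference (x axis, CCR8+ minus CCR8-) of every tested gene of the member set and 6 related lists, 1 circle per gene with vertical offsets only for legibility, filled red where the 4 CCR8+ and 4 CCR8- libraries do not overlap and with a black line at the list's median. Dusp1, Ier2, Cd69 and Rasgrp2 lie to the left among the filled points, and Dusp14, Dusp16, Dusp19, Hras and Etv5 to the right.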

How the data were processed

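Whole-transcriptome mRNA was measured in 4 CCR8+ and 4 CCR8- libraries, grouped by their titles. Per the labels and the study's methods, the authors enriched CD4+ T cells from digested tumors, sorted them and made libraries with a low-input SMARTer kit that amplifies cDNA. They checked reads with FastQC, trimmed them with cutadapt, aligned them to NCBIM37 (mm9) with hisat2 and kept unique reads. HTSeq and DESeq2 are named in the submitters' processing notes, with no versions. The deposited signal is a read count per gene divided by 1 size factor per library. It is named FPM, but totals were between 11469410 and 14394101. With a tolerance of 0.02 reads, 100% of values came out as whole reads in each library. Depth was 12067780 to 17802628 reads per library, and 3 reads, the floor, stood for 2.21 to 3.42 normalized counts. Limits cover counting error only, since there are no molecular identifiers.

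Differences were tested with limma 3.58.1 (R 4.3.3) with an intensity trend on log2(value + 1), over the 11032 genes whose mean reached 10, and p-values were adjusted by Benjamini-Hochberg, with a threshold of 0.05. Single members also had exact permutation tests. Alternatives were other scalings, a pseudocount of 0.1 or 10, dropping the limit on the mean or raising it to 100, a replicate block, no trend, library quality weights, edgeR 4.0.16 and DESeq2 1.42.0 on recovered reads, and leaving out each library. Leaving out 2 libraries together was chosen after seeing the data. Exon lengths are from GENCODE M21 (GRCm38) and promoters from RefSeq.

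The members and gene lists were chosen with earlier results of these data known. All members are named. From the other lists the text names genes called by limma, genes without overlap and the 2 genes with the largest absolute statistic. It adds Hspa1a, Hspa1b, Hspa8, Hsp90aa1, Hsph1, Dnajb1, Dnaja1, Nfkbia, Gadd45b and Phlda1, which were chosen after their values were seen. Ptpn7 and Ptprr are named only as part of their list. 1 gene name was listed more than once and was left out of the lists. Columns with values of a single sample that were left unused numbered 0.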

Additional observations from a re-analysis of the deposited data

Results flagged for a closer look

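Of 50 groups of 4 libraries examined, 4 held a library far from the other 3 on the log2 scale, and chance gives about 1 in 20 groups. Dusp10 was at 2431 normalized counts in CCR8+ replicate 4, against 3997 in the nearest library of that group. Spry1 was at 1.97 in CCR8- replicate 1, against 521 in the nearest. Dusp19 was at 11.8 in the same library, against 174. Mapkapk2 was at 3096 in CCR8- replicate 3, against 1707 in the nearest. The cause was not tested.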

How the results depend on the processing

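The log2 differences of Dusp1, between -0.91 and -0.51, and of Dusp10, between -0.996 and -0.36, stayed negative under every alternative run, and that of Spred1, between 0.44 and 3.06, stayed positive. None of the 8 members was called under any alternative, the lowest adjusted p being 0.0534 for Dusp10 with library quality weights. Dusp4 was positive, between 0.0633 and 0.97, under every setting fixed in advance. It was negative only with 2 libraries left out together, as given below. The signs of Dusp2, Dusp5, Dusp6 and Spry1 depended on the setting, and the cause was not tested. Dusp2 was -0.0703 with edgeR and -0.073 with DESeq2, and between -0.39 (without CCR8- replicate 1) and 0.71 with 1 library left out. Dusp5 was -0.14 with quality weights, -0.0434 with edgeR, -0.0366 with DESeq2 and between -0.26 and 0.70 with 1 library left out. Dusp6 was between -0.0732 (without CCR8- replicate 2) and 0.38 with 1 library left out, and -0.0646 without CCR8+ replicate 3. Spry1 was -0.0154 with quantile normalization, -0.65 with quality weights, -0.41 with edgeR, -0.40 with DESeq2 and between -0.83 and 2.03 with 1 library left out. With CCR8- replicate 1 and CCR8+ replicate 3 left out together, a setting chosen after seeing the data, Dusp2 was -0.33, Dusp4 -0.22, Dusp5 -0.27, Dusp6 -0.16 and Spry1 -1.06.

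The count of members without overlap was 2 with TMM scaling (both lower, against 1.98% of all genes) and between 1 and 2 with 1 library left out. It was 2 (Dusp1 and Dusp10) without CCR8- replicate 4 or CCR8+ replicate 3. Dusp10 overlapped only through these libraries, so that count was fixed by the choice of library. With CCR8- replicate 1 and CCR8+ replicate 3 both left out it was 3 (Dusp1, Dusp10 and Spry1, all lower, against 6.37% of all genes). The members' median was between -0.32 (without CCR8- replicate 1) and 0.65 (without CCR8- replicate 3) with 1 library left out and -0.30 with both left out. Among list genes, quality weights called 1 other dual-specificity phosphatase, 2 Ras to ERK genes and 1 MAP kinase-induced gene. Over all genes, quality weights called 112, DESeq2 27, limma without the trend 2 and the main test 0. The median of the other dual-specificity phosphatases was between 0.08 and 1.10 with 1 library left out, with 1.10 without CCR8- replicate 4 and 1.04 without CCR8+ replicate 1. That of the Ras to ERK cascade was between -0.25 and 0.0732, the lowest without CCR8- replicate 1, and -0.18 with both left out.

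Same-numbered libraries deviated together with correlations of 0.068, 0.138, 0.108 and 0.217, and each CCR8+ library correlated best with the CCR8- library of its own number, a hint from the data that the labels do not state. With the replicate block, limma called 1 gene over all genes and 0 members (Dusp1 log2 difference -0.79, adjusted p = 0.758). DESeq2 with the replicate block called 126 genes, among them 0 members, 1 other dual-specificity phosphatase (Dusp14), 2 Ras to ERK genes (Rasgrp2 and Rasa3), 1 JNK and p38 gene (Gadd45b) and 3 MAP kinase-induced genes (Ier2, Phlda1 and Cd69). CCR8- replicate 1 had 13653362 reads, more than 4 other libraries, and a value of 3 reads or fewer was not told apart from 0.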
